A study of Homo sapiens with 42 samples.

Results

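The regions described here are the ATAC-seq regions that the deposited annotation assigned to a Wnt ligand (WNT genes), a Frizzled receptor (FZD genes) or a secreted inhibitor of the pathway (SFRP and DKK genes) in 4 lung adenocarcinoma cell lines with mutant EGFR. ATAC-seq counts transposase insertions, so a higher count marks more accessible DNA. Members were taken by gene symbol alone (WNT, FZD, SFRP and DKK followed by the member's number) from the 4 annotated count tables, 1 table per line, with no measured value used. They numbered 435 of 242490 annotated regions, each 502 bases wide. Distances below are from the start annotated to each region, and some genes have several annotated starts. PC9 held 149 of 69565, H1975 119 of 76952, HCC827 45 of 30709 and HCC2935 122 of 65264, and every member passed the filter on low counts. Of the 37 genes named by the rule, 31 had a region. Those without one were WNT2, WNT3, WNT9B, FZD4, SFRP2 and DKK4. Regions were found in all 4 lines for 15 genes, in 3 lines for 11 and in 2 lines for 5.

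Each of 14 groups held 3 libraries that the labels call biological triplicates. Control cells (DMSO) grew without drug for 21 days and then received the solvent for 3 days. Persister cells (DTP, for drug tolerant persister) had 24 days of osimertinib, an inhibitor of mutant EGFR, at 500 nM. For the combination (combo), 21 days of osimertinib at 500 nM came before 3 days of AZD5153, a further small-molecule inhibitor, at 150 nM. In PC9 and H1975 a further group (AZD5153) had 21 drug-free days and then AZD5153 at 150 nM for 3 days. The labels do not state whether osimertinib stayed in the medium during those last days, and their extraction text describes an H3K27ac ChIP, whereas titles and design give ATAC-seq, which is how the files were read here. All cells were frozen in medium with serum and DMSO before the assay. Each line stands for itself only, and because bulk libraries were made, fewer cells with an open region and less accessibility per cell cannot be told apart.

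Wnt ligands are secreted lipid-modified proteins that bind a Frizzled receptor and an LRP co-receptor at the cell surface. In the canonical branch this stabilises beta-catenin, which then acts with TCF/LEF factors on target genes, whereas other ligands work through Frizzleds or ROR receptors without beta-catenin. SFRP proteins bind the ligands outside the cell and DKK1 blocks the LRP co-receptor. In lung epithelium the pathway is known for its part in progenitor maintenance, and DKK1 is itself a widely used Wnt target gene.

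The sequences before the start of 4 members are shown because their own or nearby regions recur in the results: a feedback inhibitor whose downstream region was lower in DTP cells of 3 lines (DKK1), the ligand with the most rising regions in 1 line (WNT10A), an inhibitor whose start opened in 2 lines (SFRP4) and a ligand whose start moved in opposite directions between lines (WNT9A). Each is the 250 bases before the RefSeq start in GRCh38.p14, 5′ to 3′ on the gene's strand, at chr10:52314031-52314280 (plus), chr2:218880602-218880851 (plus), chr7:37916818-37917067 (minus) and chr1:227947933-227948182 (minus). Capitals mark motif matches in DKK1 and CpG pairs in the others.
DKK1: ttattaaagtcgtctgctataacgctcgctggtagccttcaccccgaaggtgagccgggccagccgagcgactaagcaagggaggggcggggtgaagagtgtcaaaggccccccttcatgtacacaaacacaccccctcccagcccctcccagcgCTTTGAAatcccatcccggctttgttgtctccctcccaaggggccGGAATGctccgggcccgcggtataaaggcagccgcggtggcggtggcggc
WNT10A: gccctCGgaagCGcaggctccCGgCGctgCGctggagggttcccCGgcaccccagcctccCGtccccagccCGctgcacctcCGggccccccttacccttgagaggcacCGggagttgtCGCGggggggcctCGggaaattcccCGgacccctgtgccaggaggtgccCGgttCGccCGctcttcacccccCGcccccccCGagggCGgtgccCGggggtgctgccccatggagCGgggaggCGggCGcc
SFRP4: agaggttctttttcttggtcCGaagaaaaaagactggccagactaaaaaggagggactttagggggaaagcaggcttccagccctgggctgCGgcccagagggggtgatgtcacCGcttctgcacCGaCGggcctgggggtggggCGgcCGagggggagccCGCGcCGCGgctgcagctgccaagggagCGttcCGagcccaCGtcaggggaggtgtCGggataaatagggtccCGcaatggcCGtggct
WNT9A: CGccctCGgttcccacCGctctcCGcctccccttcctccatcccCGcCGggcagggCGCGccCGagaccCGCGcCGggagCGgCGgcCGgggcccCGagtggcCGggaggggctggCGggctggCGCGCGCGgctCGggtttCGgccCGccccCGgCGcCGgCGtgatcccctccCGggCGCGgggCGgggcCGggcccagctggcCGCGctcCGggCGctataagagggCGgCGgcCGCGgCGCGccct

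The capitals in DKK1 are CTTTGAA, a TCF/LEF motif, at position -95 and GGAATG, a TEAD motif, at position -50 from the start. Both strands of the 300-base windows in the RefSeq promoter table were searched for these letters and for CTTTGAT (TCF/LEF) and TGANTCA (AP-1). Promoters on chromosome 8, which carries FZD3, FZD6 and SFRP1, were left out of the member set but kept among all promoters. The member set then held 28 promoters of 25 genes named by the rule. It included WNT2, WNT3, WNT9B, FZD4 and SFRP2, which had no region, so it is not the same set as the measured genes. CTTTGAA was found in 1 of 28 member promoters and in 4.43% of all 35116 promoters, and GGAATG in 2 of 28 (DKK1 and WNT16) against 14%. CTTTGAT was found in 0 of 28 against 2.62%, and TGANTCA in 0 of 28 against 7.71%. A match describes letters in this window and no more. Member promoters were rich in CpG, with a median of 29 in 300 bases and a range of 4 to 53, against a median of 14 over all promoters. The printed stretch holds 24 CpG in WNT10A, 17 in SFRP4 and 44 in WNT9A. The measured start region of WNT9A covered all 250 printed bases in PC9, H1975 and HCC2935, that of SFRP4 shared 38 to 49 bases with its stretch, and those of DKK1 and WNT10A shared 0 there. In HCC827 the WNT10A start region shared 194 bases and that of WNT9A shared 0.

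Summed over all regions, PC9 libraries held 3989287 to 5193390 counts, H1975 libraries 6200672 to 10062505, HCC827 libraries 1724680 to 4242868 and HCC2935 libraries 3968690 to 8066287. Replicate pairs of PC9 and H1975 varied by little more than counting noise, with a variance of 0.95 to 1.032 and 0.962 to 1.211 times the Poisson value, and no excess in 9 of 12 and 6 of 12 pairs. P-values then measure only the spread between these libraries, which may be technical, so counts from libraries summed within a group are given beside the main ones. Replicates of HCC827 varied most, at 1.195 to 9.235 times the Poisson value. Its replicate 3 libraries deviated together across groups, apart from replicates 1 and 2. All 6 epithelial marker promoters (CDH1, EPCAM, KRT7, KRT8, KRT18 and KRT19) were measured in every line, whereas PTPRC and CD3E of blood cells, DCN and LUM of fibroblasts and VWF of endothelium had none. Other non-epithelial markers were measured: CD14 of blood cells and PDGFRB of fibroblasts in PC9 and H1975, COL1A1 of fibroblasts in every line, COL1A2 in HCC2935, and PECAM1 and CDH5 of endothelium in PC9 and H1975, with CDH5 alone in HCC2935. Some moved with the groups. In H1975 CD14 stood at 15.2 to 17.8 CPM (counts scaled to the size of the library) in DMSO, 6.16 to 7.26 in DTP and 9.23 to 12.7 in AZD5153 libraries, and PECAM1 and CDH5 summed to 22.5 to 28.1 in DMSO, 17.2 to 19.6 in DTP and 3.99 to 4.53 with AZD5153. In PC9 the same pair summed to 16.5 to 25.4 in DMSO and 8.81 to 11.7 with AZD5153, and in HCC2935 CDH5 went from 22.6 to 24.2 in DTP to 14.5 to 17.5 in combo libraries. The libraries labelled AZD5153 in H1975 stood apart, with a summed epithelial marker level of 78.0 to 82.4 CPM against 178.0 to 190.0 in DMSO, and 27 of 119 members there lay in 10 Mb bins whose median change passed 0.5 on the log2 scale in size (-1.0 to 0.52). In HCC2935 the summed level of 2 fibroblast marker promoters (COL1A1 and COL1A2) was 26.0 to 28.0 CPM in DMSO and 42.5 to 48.4 in DTP, and 15 of 122 members lay in such bins (log2 change -0.61 to 0.97). The part of these shifts in the results was not tested, but changes with the regional median removed are given beside values they move.

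Persister cells were compared with DMSO cells in each line to ask which Wnt genes had changed accessibility after prolonged osimertinib. A region was called at an adjusted p under 0.05 in edgeR's quasi-likelihood test, with Benjamini-Hochberg adjustment over all regions tested in that line. In PC9, 25 members (16.8%) rose and 29 (19.5%) fell, against 15.4% and 16.4% of all regions tested. In H1975, 31 (26.1%) rose and 47 (39.5%) fell, against 24.9% and 27.0%. In HCC2935, 27 (22.1%) rose and 21 (17.2%) fell, against 18.7% and 18.6%. The shares lay near the background apart from the falls in H1975, where the annotated regions as a whole also fell more often, at 36.8%. With libraries summed PC9 had 13 calls up and 12 down, H1975 had 24 and 34, and HCC2935 had 24 and 13. The median change of members was -0.01, -0.03 and 0.03 on the log2 scale in PC9, H1975 and HCC2935, against 0.01, 0.02 and -0.01 over all regions. Without composition scaling, by library size only, the H1975 calls were 44 up and 36 down and the PC9 calls 30 and 23, so the majority direction in these lines depended on the scaling. That scaling moved the median of all H1975 regions from 0.02 to 0.22.

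**Figure D1:**
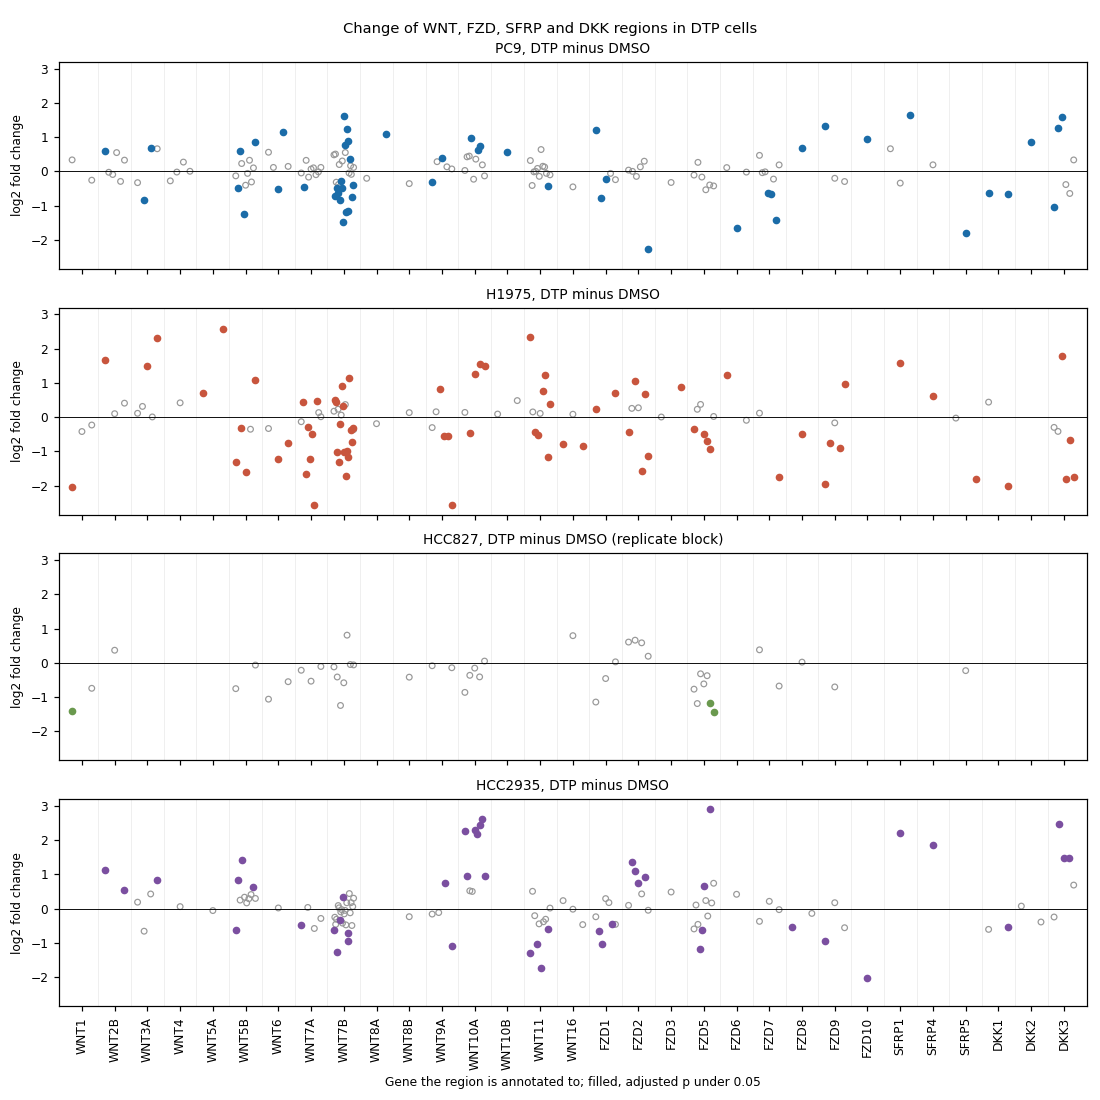
Log2 fold change of each member region in DTP against DMSO cells (y axis), by gene (x axis), in 1 panel per line; filled points have an adjusted p under 0.05 (HCC827 with the replicate block), and regions with 0 to 3 counts in every library of a group are left out. Most genes hold regions on both sides of 0, while the WNT10A points of HCC2935 all lie above 0, with 7 of 9 called higher. Of the annotated regions as a whole 23.9% were called higher in HCC2935.

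Among the ligands 16 of 100 WNT regions rose and 18 fell in DTP cells of PC9, 21 of 79 rose and 30 fell in H1975, and 15 of 74 rose and 12 fell in HCC2935. By library size only these became 19 and 14, 30 and 21, and 15 and 10, which turned the majority in PC9 and H1975. Regions were matched between lines where they shared at least 50% of each other's length, which gave 226 loci, of which 70 were found in at least 3 lines. Of these, 2 were called higher in DTP cells of 3 lines and 2 lower in 3 lines, and over all 226 loci 38 were called in at least 2 lines and 12 were called in opposite directions in a pair of lines. Regions other than members were not matched, so these counts have no background share beside them. In single lines 31.7% (PC9), 51.9% (H1975) and 37.3% (HCC2935) of all regions were called. Both loci that rose in 3 lines belonged to ligands, WNT10A and WNT2B, and both that fell lay beside DKK1 and WNT7B. HCC827 had no call in this fit.

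WNT10A encodes a ligand known for its part in teeth, hair and skin. The locus that rose in 3 lines lay 12.2 kb past an annotated start (chr2:218896070-218896571 in PC9). The HCC827 region that overlaps it was annotated to an intron of a transcript that the label does not tie to the WNT10A gene. That region lay past one in exon 4 of 4 of WNT10A. In PC9 the locus measured 14.6, 18.5 and 17.1 CPM in DMSO and 26.2, 32.0 and 27.3 in DTP libraries. H1975 measured 6.19, 5.92 and 7.96 against 15.6, 17.0 and 15.6, and HCC2935 measured 1.97, 2.66 and 6.26 against 23.4, 18.5 and 14.1. The groups did not overlap in any of these lines. The log2 change was 0.75 ± 0.13 (SE, n = 3 per group, adjusted p = 1.46e-07 by edgeR) in PC9, 1.26 (adjusted p = 2.57e-16) in H1975 and 2.44 ± 0.28 (adjusted p = 2.82e-09) in HCC2935. In HCC2935, 7 of the 9 WNT10A regions rose and 0 fell, in H1975 3 of 5 rose and 1 fell, and in PC9 3 of 10 rose and 0 fell, while 0 of 5 were called in HCC827. The annotated regions as a whole rose and fell at 23.9% and 21.2% in HCC2935, 25.8% and 36.8% in H1975 and 16.4% and 21.7% in PC9.

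The 12.2 kb above and the 13.0 and 8.7 kb below are from an annotated WNT10A start downstream of the printed one. The HCC2935 rise reached the printed start. The region 0.4 kb before it measured 4.37, 3.25 and 3.76 CPM in DMSO, 20.3, 17.2 and 18.7 in DTP and 17.5, 19.5 and 20.1 in combo libraries, a log2 change of 2.28 in DTP (adjusted p = 1.3e-11). In PC9 the matching region measured 6.35, 5.32 and 6.94 in DMSO and 8.75, 5.16 and 11 in DTP libraries, which overlapped, and it was not called. The largest WNT10A change stood 13.0 kb past the start, where HCC2935 measured 1.97, 4.72 and 6.57 CPM in DMSO and 29.4, 25.0 and 21.9 in DTP (log2 change 2.61 ± 0.22, adjusted p = 6.35e-13). H1975 rose there too, from 6.19, 6.19 and 6.2 to 19.5, 17.4 and 17.7 CPM (log2 change 1.55). In H1975 the region 8.7 kb past the start, in an exon, went the other way, with 9.43, 12.6 and 11.9 CPM in DMSO and 7.68, 7.37 and 9.63 in DTP (log2 change -0.47, groups overlapping, adjusted p = 0.105 with libraries summed).

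**Figure D2:**
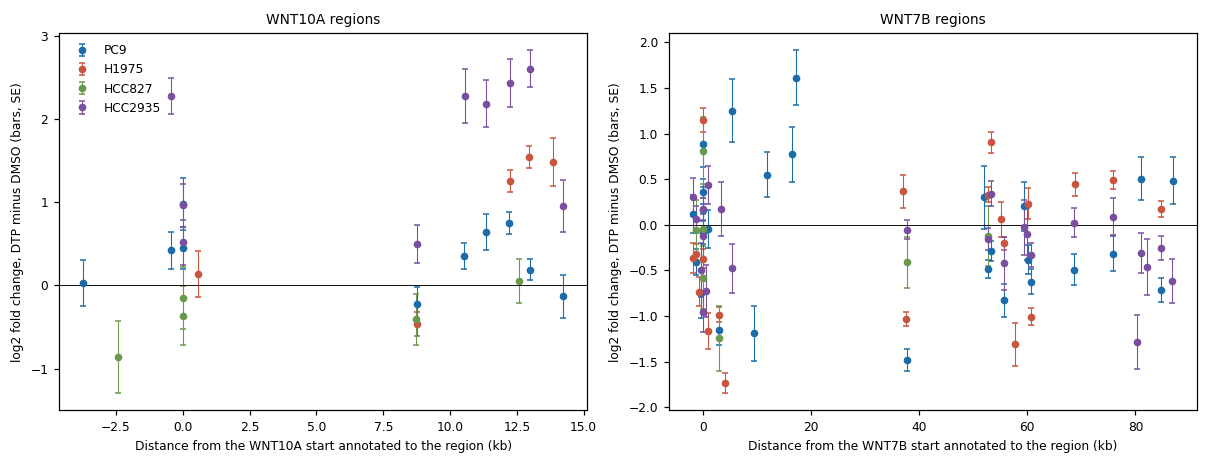
Log2 fold change ± SE in DTP against DMSO cells (y axis) of each WNT10A and WNT7B region against its distance from the start annotated to it in kb (x axis), by line (HCC827 with the replicate block). WNT10A regions about 12 to 13 kb past the start are above 0 in PC9, H1975 and HCC2935, whereas WNT7B regions scatter on both sides of 0.

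WNT2B, a canonical ligand close to WNT2, had its locus 1.7 kb before the start (chr1:112464345-112464846 in PC9). CPM values there were 30.2, 29.9 and 33.2 in DMSO and 46.4, 48.5 and 47.0 in DTP libraries of PC9. H1975 measured 2.47, 2.42 and 2.16 against 6.27, 7.71 and 8.51, and HCC2935 6.33, 6.5 and 3.76 against 12.3, 11.2 and 13.7. The groups were apart in all 3 lines, with log2 changes of 0.60, 1.68 and 1.14, though PC9 had an adjusted p of 0.0509 with its libraries summed. The region at the WNT2B start itself did not follow in PC9 (24.1, 22.6 and 26.0 CPM in DMSO, 24.3, 25.0 and 22.3 in DTP).

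WNT7B, a ligand of lung epithelium that acts on the neighbouring mesenchyme during development, had the most regions. In DTP cells 5 of its 27 regions rose and 11 fell in PC9, 5 of 20 rose and 10 fell in H1975, and 1 of 24 rose and 5 fell in HCC2935. The intronic region 37.7 kb past the start (chr22:45934544-45935045 in PC9) measured 47.7, 44.1 and 41.2 CPM in DMSO and 17.0, 13.9 and 16.3 in DTP libraries of PC9 (log2 change -1.48, adjusted p = 1.93e-31). H1975 fell from 50.9, 53.1 and 47.1 to 25.2, 26.7 and 22.2 (log2 change -1.03), and HCC2935 measured 51.5, 47.5 and 41.0 against 42.7, 48.8 and 44.3, which overlapped and was not called. At 60.7 kb past the start all 3 lines were called lower. The values were 22.6, 21.8 and 24.6 against 15.1, 13.9 and 15.8 in PC9 (log2 change -0.62, adjusted p = 0.0568 with libraries summed), 34.0, 34.3 and 29.1 against 16.1, 15.8 and 16.5 in H1975 (log2 change -1.01), and 35.2, 36.3 and 26.9 against 24.3, 24.5 and 30.2 in HCC2935 (log2 change -0.33, adjusted p = 0.0446). The HCC2935 groups overlapped, with the regional median removed the change was -0.15, and with single libraries left out the call was lost in 7 of 9 cases (adjusted p = 0.0749 to 0.293).

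The largest WNT7B rise in PC9 lay in the first intron, 17.3 kb past the start, at 2.22, 1.77 and 2.73 CPM in DMSO and 8.02, 6.96 and 5.76 in DTP libraries (log2 change 1.61 ± 0.30, adjusted p = 1.82e-06). Start regions of WNT7B moved unequally. In H1975 the start at chr22:45975676-45976177 rose from 7.27, 8.21 and 8.22 to 16.4, 17.7 and 18.6 CPM (log2 change 1.15), while the start at chr22:45976930-45977431 fell from 22.6, 20.4 and 19.0 to 16.5, 13.9 and 17.4 (log2 change -0.37, adjusted p = 0.168 with libraries summed). A further start region rose in PC9, from 4.13, 3.04 and 4.96 to 7.78, 8.25 and 6.51 CPM (log2 change 0.89), and its match in HCC2935 fell from 17.5, 10.9 and 14.7 to 5.13, 7.61 and 9.73 (log2 change -0.96). None of these groups overlapped, and the difference between lines was not tested.

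Ligands that mostly act without beta-catenin had single regions with large changes. The WNT5A region 15 kb before the start lay in an exon of a transcript that the label does not tie to the WNT5A gene. In H1975 it measured 0.928, 0.538 and 0.944 CPM in DMSO (6, 4 and 7 counts) and 4.61, 4.76 and 5.04 in DTP libraries (log2 change 2.57 ± 0.31, adjusted p = 1.32e-13). Also in H1975, WNT11 had a region 39.7 kb past its start that rose from 1.86, 2.02 and 2.83 to 9.21, 13.4 and 11.8 CPM (log2 change 2.35 ± 0.19, adjusted p = 1.8e-25). In HCC2935 no WNT11 region rose and 4 of 10 fell, against 23.9% and 21.2% of the annotated regions as a whole. Those named were 16.4 kb before the start (from 7.86, 8.86 and 8.76 to 2.85, 1.98 and 2.86 CPM, a log2 change of -1.72) and 44.8 kb past it (from 5.46, 5.02 and 4.69 to 1.52, 1.32 and 3.43 CPM, a log2 change of -1.30). Their 10 Mb bin had a median of -0.61, and with it removed the changes were -1.16 and -0.73, the latter with an adjusted p of 0.0911. WNT5B, close to WNT5A, had a region 9.8 kb past its start that fell in PC9 and H1975 (log2 change -1.24 and -1.59) and was not called in HCC2935 (log2 change 0.33).

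Other ligands also had single regions with large changes in H1975. A WNT1 region 0.6 kb before the start measured 3.87, 5.38 and 3.78 CPM in DMSO and 0.64, 1.47 and 1.01 in DTP libraries (log2 change -2.03, adjusted p = 1.72e-10). The WNT1 region over the start, the more accessible promoter region there, measured 3.5 to 4.64 CPM in DMSO and 2.8 to 3.33 in DTP libraries and was not called. An intronic region of WNT3A, 8.3 kb past its start, rose from 0.773, 0.0 and 0.135 to 1.54, 1.93 and 0.896 CPM (log2 change 2.30), a value that rests on 5, 0 and 1 counts in DMSO. WNT7A, another lung ligand, fell in an intron 16 kb past its start from 4.17, 5.52 and 5.8 to 1.15, 1.02 and 0.448 CPM (log2 change -2.57, adjusted p = 4.04e-15). In all these comparisons the groups did not overlap, which the choice of the called regions required. The region 18.7 kb before WNT9A fell from 5.57, 6.32 and 7.69 to 1.28, 1.02 and 1.01 CPM (log2 change -2.57, adjusted p = 3.83e-18).

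The WNT9A start, whose sequence is printed above, did not move one way across lines. In PC9 it measured 14.9, 14.7 and 13.9 CPM in DMSO and 19.9, 21.7 and 15.5 in DTP libraries (log2 change 0.39, adjusted p = 0.0281). HCC2935 measured 12.2, 10.9 and 9.39 against 13.5, 19.7 and 21.9 (log2 change 0.74), while H1975 measured 17.2, 15.3 and 16 against 10.9, 11.5 and 10.7 (log2 change -0.55). The groups were apart in each line, but with libraries summed PC9 had an adjusted p of 0.317. WNT6, the neighbour of WNT10A, had a region 5.6 kb before its start that rose in PC9 from 3.49, 2.79 and 2.48 to 5.35, 6.96 and 7.01 CPM (log2 change 1.15) and fell in H1975 from 9.28, 8.74 and 10.4 to 4.99, 4.99 and 6.61 (log2 change -0.77).

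Among the receptors 4 of 34 FZD regions rose and 7 fell in DTP cells of PC9, 7 of 28 rose and 12 fell in H1975, and 6 of 36 rose and 8 fell in HCC2935. The annotated regions as a whole rose and fell at 16.4% and 21.7% in PC9, 25.8% and 36.8% in H1975 and 23.9% and 21.2% in HCC2935. By library size only the FZD counts were 5 and 6, 10 and 10, and 7 and 8, so falls no longer outnumbered rises in H1975. Regions are of equal width, so their CPM can be set side by side per length, and the FZD1 and FZD5 starts were the most accessible member promoters. The mean over libraries was 36.5 to 69.7 CPM for FZD1 and 28.3 to 70.6 for FZD5, depending on the line. The FZD1 start changed little: 46.4, 47.4 and 48.4 against 39.6, 43.1 and 39.3 CPM in PC9 (log2 change -0.23), 62.5, 64.3 and 58.4 against 70.0, 73.4 and 76.1 in H1975 (log2 change 0.25) and 75.3, 89.2 and 77.0 against 58.7, 64.3 and 54.8 in HCC2935 (log2 change -0.44). Each was called, in differing directions, with groups apart, but none was called with libraries summed (adjusted p = 0.539, 0.419 and 0.122).

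FZD2, a receptor for both branches of the pathway, rose over several regions of HCC2935, with 4 of 7 higher and 0 lower. The annotated regions as a whole rose and fell there at 23.9% and 21.2%. Its start measured 15.5, 17.1 and 11.3 CPM in DMSO and 25.3, 26.8 and 21.9 in DTP libraries there (log2 change 0.75, adjusted p = 0.000189). H1975 rose at the start from 8.04, 7.13 and 6.61 to 14.3, 18 and 12.7 CPM (log2 change 1.05), and PC9 measured 16.5, 22.8 and 13.9 against 17.5, 22.4 and 18.8, which overlapped. The region 29.8 kb past the start rose in the same lines, from 21.2, 19.5 and 18.8 to 34.6, 43.0 and 36.6 CPM in HCC2935 (log2 change 0.94) and from 15.6, 15.3 and 16 to 25.1, 25.0 and 24.7 in H1975 (log2 change 0.67). At 41.9 kb past the start PC9 fell from 4.77, 5.83 and 6.45 to 0.972, 1.29 and 1.25 CPM (log2 change -2.27, adjusted p = 4.24e-08) and H1975 from 16.9, 15.2 and 14.3 to 7.68, 6.69 and 6.83 (log2 change -1.13). Within H1975 the start and the region 29.8 kb past it rose while the region 41.8 kb past it fell, with groups apart at all 3 regions.

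Other receptors changed at single regions. FZD5 had no called rise and 4 called falls among 7 regions in H1975, against 25.8% and 36.8% of the annotated regions as a whole. The FZD5 start there went from 49.8, 48.8 and 50.4 to 33.3, 35.2 and 38.2 CPM (log2 change -0.48, adjusted p = 0.0526 with libraries summed). In HCC2935 a FZD5 region 63.2 kb before the start measured 1.09, 0.295 and 0.0 CPM in DMSO and 3.99, 5.62 and 2.86 in DTP libraries (log2 change 2.92, resting on 5, 1 and 0 counts in DMSO). FZD10 fell in HCC2935 24.1 kb past its start, from 12, 6.5 and 6.89 to 2.47, 2.48 and 1.34 CPM (log2 change -2.03), and -1.61 with its bin median of -0.49 removed. FZD6 had a pair of promoter regions in PC9. The one over its annotated start fell from 4.77, 4.82 and 3.97 to 1.94, 1.55 and 0.751 CPM (log2 change -1.64, adjusted p = 0.000117), and the more accessible one 0.3 kb past a start measured 5.72, 7.61 and 9.18 against 8.51, 7.22 and 9.01 and was not called. FZD8 fell at its start in H1975 and HCC2935 (log2 change -0.49 and -0.54) and was called higher in PC9 (log2 change 0.68), where groups overlapped at 3.18, 5.07 and 6.2 against 6.08, 10.1 and 7.76 CPM. None of these FZD8 calls held with libraries summed (adjusted p = 0.0561, 0.068 and 0.128). FZD9 had a region 13.3 kb before its start that fell in H1975 from 6.8, 7.26 and 6.07 to 1.66, 1.59 and 1.9 CPM (log2 change -1.95).

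**Figure D3:**
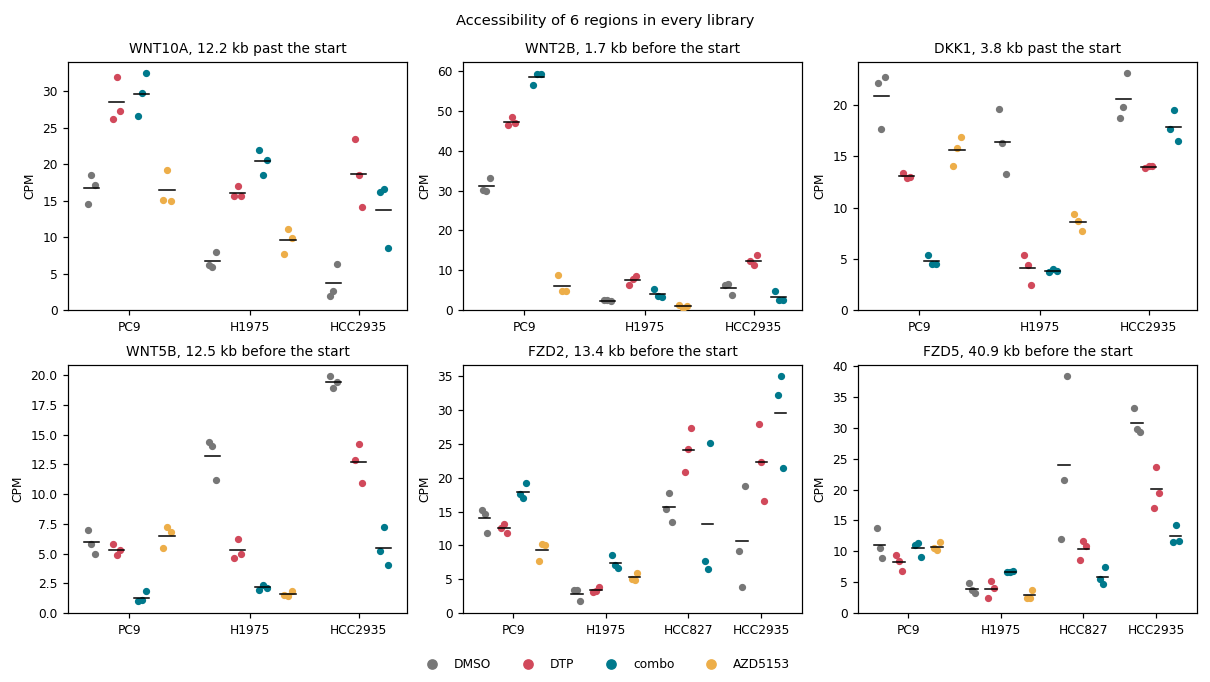
CPM of each library (y axis, points; the line is the group mean) by group (x axis) and line for the WNT10A, WNT2B, DKK1, WNT5B, FZD2 and FZD5 regions named in the panel titles, 1 panel per locus, in the lines where the locus was measured. At the WNT2B locus the DTP libraries of PC9, H1975 and HCC2935 lie above their DMSO libraries, and the PC9 libraries with AZD5153 alone lie between 4.69 and 8.85.

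Among the secreted inhibitors, SFRP regions were few. In HCC2935 3 of 3 rose under every scaling tried, 1 of them of SFRP1 and 2 of SFRP4. There were 1 up and 1 down of 5 in PC9 and 2 up and 1 down of 4 in H1975. The annotated regions as a whole rose and fell at 23.9% and 21.2% in HCC2935, 16.4% and 21.7% in PC9 and 25.8% and 36.8% in H1975. SFRP1 and SFRP4 bind Wnt ligands and are often silenced by promoter methylation in carcinomas. The SFRP4 start region measured 2.18, 2.07 and 2.19 CPM in DMSO and 8.17, 8.6 and 6.68 in DTP libraries of HCC2935 (log2 change 1.85, adjusted p = 2.92e-06). In H1975 it measured 10.1, 6.73 and 6.61 against 9.73, 13.6 and 11.8 (log2 change 0.61, groups overlapping), and in PC9 3.81, 5.07 and 5.95 against 4.37, 7.22 and 5.76, which was not called. An SFRP4 intron region at chr7:37987683-37988184 lay 37.5 kb past another annotated start, and upstream of the start region above. In HCC2935 it went from 0.218, 0.295 and 0.939 CPM, with 1, 1 and 3 counts, to 9.31, 9.1 and 8.01 (adjusted p = 4.52e-11, no fold given at so few counts).

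The SFRP1 start opened in HCC2935 from 1.31, 0.886 and 0.626 to 5.51, 4.47 and 4.01 CPM (log2 change 2.22, and 1.80 with its bin median of 0.45 removed). In PC9 that start measured 8.9, 10.4 and 9.43 against 8.26, 7.73 and 6.76 CPM and was not called, whereas a region 13.8 kb before it rose from 1.91, 1.52 and 2.48 to 6.56, 6.19 and 6.01 (log2 change 1.65, adjusted p = 4.62e-06). SFRP5 fell 38.4 kb before its start in PC9, from 6.04, 6.08 and 6.2 to 1.46, 2.32 and 1.5 CPM (log2 change -1.79). The matching region of H1975, 38.3 kb before the start, fell from 7.11, 5.65 and 3.64 to 1.15, 1.93 and 1.46 (log2 change -1.81). Groups were apart in each of these calls.

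DKK regions had 4 rises and 3 falls of 10 in PC9, 1 and 4 of 8 in H1975 and 3 and 1 of 9 in HCC2935, and the last became 1 and 3 with regional medians removed. The DKK1 locus that fell in 3 lines lay 3.8 kb past the start, beyond the gene (chr10:52319016-52319517 in PC9). Its CPM values were 22.2, 17.7 and 22.8 in DMSO and 13.4, 12.9 and 13.0 in DTP libraries of PC9 (log2 change -0.67). H1975 measured 19.6, 16.3 and 13.3 against 5.37, 4.42 and 2.46 (log2 change -2.01), and HCC2935 18.8, 19.8 and 23.2 against 13.9, 14.1 and 14.1 (log2 change -0.54, adjusted p = 0.0824 with libraries summed). No groups overlapped. The DKK1 promoter region was lower in DTP cells of PC9 at 6.04, 5.83 and 7.19 against 4.13, 3.35 and 4.76 CPM (log2 change -0.64, adjusted p = 0.0487, and 0.174 with libraries summed), and in H1975 it measured 3.56, 2.82 and 3.1 against 4.48, 4.54 and 3.81 without a call.

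DKK3, the divergent family member often called a tumour suppressor, has several annotated starts. At the start near chr11:11979754-11980255 H1975 rose from 0.464, 0.942 and 0.944 to 2.82, 2.15 and 3.36 CPM (log2 change 1.78) and HCC2935 from 0.874, 0.295 and 0.939 to 3.99, 4.47 and 3.63 (log2 change 2.46, and 1.59 with its bin median of 0.97 removed). About 2.0 kb past another start the lines parted. PC9 rose from 0.635, 1.01 and 1.74 to 2.67, 4.13 and 4.0 CPM (log2 change 1.59) and HCC2935 from 1.97, 2.07 and 2.19 to 4.37, 8.27 and 4.58 (log2 change 1.49, and 0.61 with the bin median removed), while H1975 fell from 6.65, 6.46 and 6.07 to 2.05, 1.59 and 1.79 (log2 change -1.82). An intron of DKK2, 86.9 kb past its start, measured 0.635, 0.507 and 0.496 CPM in DMSO, 2 counts in each library, and 5.35, 6.45 and 5.26 in DTP libraries of PC9 (adjusted p = 7.54e-12).

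In HCC827 no member was called in DTP cells, against 0.0219% of all regions, with 5 members at an unadjusted p under 0.05 and 0 called by DESeq2. With the replicate block 0 members rose and 3 (6.67%) fell, against 2.16% and 1.72% of all regions. The ground for this block was mainly that the replicate 3 libraries deviated together, since a pairing of numbers 1 and 2 was not shown. The WNT1 promoter region measured 12, 10.2 and 13.9 CPM in DMSO and 2.87, 5.87 and 5.15 in DTP libraries (log2 change -1.40, adjusted p = 0.0458 with the block). Both others lay upstream of FZD5. The region 40.9 kb before its start measured 12, 21.6 and 38.4 against 8.6, 11.7 and 10.9 CPM (log2 change -1.18), and the region 49.9 kb before it 22.9, 24.8 and 40.5 against 10.7, 6.71 and 14.8 (log2 change -1.45). All 3 pairs of groups were apart, which the choice of these regions required. HCC2935 also fell at the nearer region, from 33.2, 29.8 and 29.4 to 17.1, 23.7 and 19.5 CPM (log2 change -0.62), but rose at the farther, from 11.4, 6.79 and 15 to 18, 18.2 and 16 (log2 change 0.66).

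The combination was compared with DTP cells to ask what 3 days of AZD5153 changed after osimertinib. The DTP libraries are the same as in the comparison with DMSO. Regions picked above for extreme DTP levels, such as those of WNT2B, WNT5A, FZD6 and FZD9, can therefore move back in part through that choice. In PC9, 20 members (13.4%) rose and 18 (12.1%) fell, against 10.6% and 11.7% of all regions, and in H1975 17 (14.3%) rose and 21 (17.6%) fell, against 11.5% and 9.48%. In HCC2935, 6 (4.92%) rose and 11 (9.02%) fell, against 1.90% and 6.40%. HCC827 had 0 calls, against 0% of all regions, with 5 members at an unadjusted p under 0.05 and 0 called by DESeq2. The annotated regions as a whole rose and fell at 15.5% and 13.7% in PC9, 22.0% and 10.6% in H1975 and 3.28% and 9.59% in HCC2935. With libraries summed PC9 had 4 calls up and 5 down, H1975 had 1 and 9, and HCC2935 had 1 and 7. The HCC2935 total of 17 also depended on single libraries, with 8 calls without DTP replicate 1, 9 without DTP replicate 2 or 3 and 10 without combo replicate 2. By library size only the H1975 calls were 11 up and 30 down and the PC9 calls 17 and 22. WNT regions of H1975 had 7 rises and 16 falls of 79, and 3 and 24 by library size only, while FZD regions had 8 and 4 of 28.

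WNT5B, a ligand that mostly acts without beta-catenin, had the only locus called lower in 3 lines, 12.5 kb before its start (chr12:1516888-1517389 in PC9). DTP and combo libraries measured 5.83, 4.9 and 5.26 against 0.976, 1.06 and 1.86 CPM in PC9 (log2 change -2.02 ± 0.36, adjusted p = 1.54e-06). H1975 measured 4.61, 6.24 and 4.93 against 1.97, 2.37 and 2.14 (log2 change -1.28), and HCC2935 12.9, 14.2 and 10.9 against 5.2, 7.21 and 4.03 (log2 change -1.17). No groups overlapped. At this locus DMSO libraries measured 6.99, 5.83 and 4.96 CPM for PC9, 14.4, 14 and 11.2 for H1975 and 19.9, 18.9 and 19.4 for HCC2935. The DTP change was -0.13 in PC9, which was not called, -1.31 in H1975 and -0.61 in HCC2935, a comparison that shares the DTP libraries.

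At the WNT2B locus the combo libraries moved in both directions. PC9 went from 46.4, 48.5 and 47.0 to 56.6, 59.4 and 59.4 CPM (log2 change 0.30, adjusted p = 0.439 with libraries summed), H1975 from 6.27, 7.71 and 8.51 to 5.25, 3.49 and 3.15 (log2 change -0.94), and HCC2935 from 12.3, 11.2 and 13.7 to 4.83, 2.59 and 2.42 (log2 change -1.93, adjusted p = 3.7e-07). The groups were apart in each line. The WNT10A region 12.2 kb past its start stayed near its DTP level, with 26.6, 29.7 and 32.5 CPM in PC9 and 16.2, 16.6 and 8.45 in HCC2935, neither called, while H1975 measured 22.0, 18.5 and 20.6 (log2 change 0.34, adjusted p = 0.00811, and 0.423 with libraries summed). Regions of other ligands fell, WNT5A from its raised DTP level and WNT9A further from an already lower one. In H1975 the WNT5A region 15 kb before its start went from 4.61, 4.76 and 5.04 to 1.31, 0.997 and 2.03 CPM (log2 change -1.70, adjusted p = 2.46e-08), and the WNT9A region 18.7 kb before its start from 1.28, 1.02 and 1.01 to 0.787, 0.249 and 0.0 (log2 change -1.70, with 6, 2 and 0 counts). Without combo replicate 2 or 3 the WNT9A call was lost, at adjusted p values of 0.0501 and 0.179.

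Among receptors the PC9 region over the annotated FZD6 start rose from 1.94, 1.55 and 0.751 to 3.17, 3.18 and 6.66 CPM (log2 change 1.58, adjusted p = 0.000447, and 0.0503 without combo replicate 3), while the more accessible FZD6 region 0.3 kb past a start went from 8.51, 7.22 and 9.01 to 6.1, 6.36 and 4.53 without a call (log2 change -0.54, adjusted p = 0.0689). FZD7 rose in PC9 37.5 kb before its start, from 1.46, 2.32 and 2.25 to 5.61, 5.83 and 6.66 CPM (log2 change 1.57). FZD2 rose in H1975 13.5 kb before its start, from 3.07, 3.18 and 3.81 to 8.53, 7.11 and 6.64 CPM (log2 change 1.13, adjusted p = 2.73e-07), and FZD9 13.3 kb before its start, from 1.66, 1.59 and 1.9 to 3.15, 3.12 and 3.04 (log2 change 0.84, adjusted p = 0.117 with libraries summed and 0.0513 without DTP replicate 2). In HCC2935 FZD1 fell 20.1 kb before its start, from 12, 16.2 and 13.9 to 3.53, 4.32 and 2.62 CPM (log2 change -1.97 ± 0.23, adjusted p = 5.28e-08). The HCC2935 region 41.8 kb past the FZD2 start measured 3.61, 3.8 and 3.43 against 5.95, 7.5 and 6.24 (log2 change 0.86, adjusted p = 0.0227). That call was lost in 7 of 16 alternatives, with adjusted p values of 0.0648 with libraries summed, 0.128 by DESeq2, 0.067 to 0.072 without single DTP libraries and 0.124 without combo replicate 2. In all these the DTP and combo libraries did not overlap, which the choice of regions required except at the uncalled FZD6 region. The FZD8 start of H1975 fell from 17.5, 17.4 and 18.8 to 8.4, 7.73 and 9.79 CPM (log2 change -1.04).

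For the inhibitor DKK1 the promoter region rose in 2 lines, and the downstream region was called in PC9 alone, where it fell. In HCC2935 the promoter region measured 1.14, 2.65 and 2.48 CPM in DTP and 6.51, 5.77 and 3.82 in combo libraries (log2 change 1.35, adjusted p = 0.00286), and in H1975 4.48, 4.54 and 3.81 against 6.3, 8.85 and 6.87 (log2 change 0.78, adjusted p = 0.000216, and 0.0555 with libraries summed). Both pairs of groups were apart, and the PC9 change of 0.53 was not called. At 3.8 kb past the start PC9 fell from 13.4, 12.9 and 13.0 to 5.37, 4.51 and 4.53 CPM (log2 change -1.44 ± 0.21, adjusted p = 1.73e-09). H1975 measured 3.67, 3.99 and 3.83 in combo libraries and HCC2935 17.7, 19.5 and 16.5, neither called.

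AZD5153 alone was compared with DMSO cells in PC9 and H1975. In PC9, 14 members (9.4%) rose and 23 (15.4%) fell, against 11.2% and 14.6% of all regions. In H1975, 32 (26.9%) rose and 49 (41.2%) fell, against 26.7% and 31.4%. The annotated regions as a whole rose and fell at 14.3% and 18.2% in PC9 and 29.0% and 43.2% in H1975. With libraries summed PC9 had 7 rises and 9 falls and H1975 had 25 and 39. By library size only the H1975 calls were 43 up and 40 down, with the median of all regions at 0.19 in place of -0.04. FZD regions had 4 rises and 13 falls of 28 in H1975, 9 and 12 by library size only and 7 and 7 with regional medians removed. DKK regions had 6 rises and 2 falls of 8, and 4 and 2 with regional medians removed.

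The WNT2B region 1.7 kb before the start fell in both lines, from 30.2, 29.9 and 33.2 to 8.85, 4.87 and 4.69 CPM in PC9 (log2 change -2.35, adjusted p = 3.95e-42) and from 2.47, 2.42 and 2.16 to 1.29, 0.523 and 0.913 in H1975 (log2 change -1.30). The groups were apart in both. An intronic WNT7B region of PC9, 9.5 kb past the start, fell from 4.77, 5.83 and 6.94 to 2.39, 1.86 and 1.17 CPM (log2 change -1.70). DKK3 rose in PC9 2.2 kb past a start from 1.59, 1.77 and 1.98 to 7.66, 4.41 and 7.74 CPM (log2 change 1.86) and 2.0 kb past another from 0.635, 1.01 and 1.74 to 4.79, 2.78 and 4.22 (log2 change 1.72). In H1975 the largest fall was in an intron of FZD6, 8.4 kb past its start, from 28.0, 28.9 and 27.2 to 1.81, 1.57 and 1.03 CPM (log2 change -4.27 ± 0.17, adjusted p = 1.49e-65), and -3.44 with its bin median of -1.0 removed. The WNT7B region 52.8 kb past its start fell from 29.2, 28.4 and 27.4 to 1.81, 3.14 and 2.62 CPM (log2 change -3.51, and -3.64 with the bin median removed). The summed epithelial marker level of these H1975 libraries was low as well, and its part in these falls was not tested.

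Rises with AZD5153 alone in H1975 included the DKK3 start near chr11:11979754-11980255, from 0.464, 0.942 and 0.944 to 7.1, 6.79 and 7.64 CPM (log2 change 3.16, adjusted p = 1.95e-22), and the DKK1 promoter region, from 3.56, 2.82 and 3.1 to 7.61, 7.84 and 9.01 (log2 change 1.38). WNT3A rose 8.3 kb past its start from 0.773, 0.0 and 0.135 to 4.26, 4.01 and 4.79 CPM (log2 change 3.89, with 5, 0 and 1 counts in DMSO). WNT5B fell 12.5 kb before its start from 14.4, 14 and 11.2 to 1.55, 1.39 and 1.83 (log2 change -3.01), whereas PC9 measured 6.99, 5.83 and 4.96 against 5.5, 7.19 and 6.8 there and was not called.

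**Figure D4:**
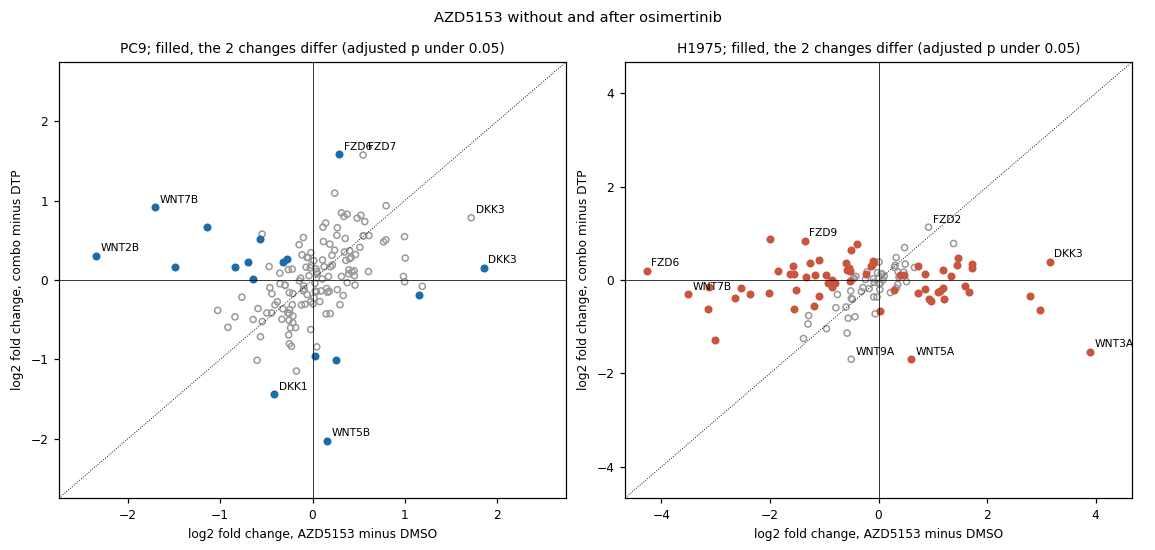
Log2 fold change of each member region with AZD5153 alone against DMSO (x axis) and with the combination against DTP cells (y axis), in PC9 and H1975; filled points differ between the settings at an adjusted p under 0.05, and regions with 0 to 3 counts in every library of a group are left out. H1975 points spread further along the x axis than along the y axis, and FZD6 8.4 kb past its start is at -4.27 on the x axis.

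Whether AZD5153 changed a region differently in persister and in untreated cells was tested as the difference of both changes, combo against DTP minus AZD5153 against DMSO. In PC9, 11 members (7.38%) were higher and 6 (4.03%) lower in this difference, against 7.32% and 6.46% of all regions. In H1975, 39 (32.8%) were higher and 27 (22.7%) lower, against 24.4% and 18.2%. There 22 of 119 members lay in 10 Mb bins whose median difference passed 0.5 in size. Of the annotated regions as a whole, 10.8% were higher and 8.1% lower in PC9 and 40.0% and 19.8% in H1975. With libraries summed PC9 had 4 higher and 2 lower and H1975 had 25 and 20. By library size only the H1975 calls were 27 and 43, with the median of all regions at -0.32. The H1975 FZD regions had 12 higher and 2 lower of 28, 8 and 7 by library size only and 6 and 4 with regional medians removed. The WNT2B region 1.7 kb before its start had the largest positive difference in PC9 under the rule for named regions, 2.65 (adjusted p = 7.22e-40), since it rose to 56.6, 59.4 and 59.4 CPM in combo libraries and fell to 8.85, 4.87 and 4.69 with AZD5153 alone. WNT5B 12.5 kb before its start had the opposite difference, -2.18 (adjusted p = 3.66e-05) in PC9, and 1.73 in H1975. In H1975 the FZD6 intron differed by 4.47, and by 3.63 with regional medians removed, as its combo libraries stood at 30.0, 30.7 and 29.7 CPM. WNT3A 8.3 kb past its start differed by -5.43, with 2, 3 and 7 counts in combo libraries.

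Promoter regions, taken as the most accessible region within 1000 bases of a start for each gene, were compared with those of other Wnt pathway genes (secretion, co-receptors, cytoplasmic and nuclear members). In DTP cells 6 of 26 member promoters rose and 2 fell in PC9, 4 of 18 rose and 6 fell in H1975, 8 of 22 rose and 2 fell in HCC2935, and 0 of 12 were called in HCC827. Over all genes with such a region 13.5% rose and 10.4% fell in PC9, 19.6% and 27.0% in H1975, 22.0% and 9.92% in HCC2935, and 0% were called in HCC827. The other pathway promoters had 5 rises and 4 falls of 40 in PC9, 7 and 12 of 36 in H1975, 8 and 2 of 37 in HCC2935 and 0 of 29 called in HCC827. With the combination the pathway promoters had 10 rises and 3 falls in PC9, 13 and 3 in H1975 and 1 and 0 in HCC2935, against 23.6% and 7.26%, 38% and 4.75%, and 6.09% and 2.3% of all such promoter regions. By library size only these pathway counts were 5 and 3, 6 and 3, and 1 and 1, and by DESeq2 4 and 0, 5 and 2, and 0 and 0. With AZD5153 alone they had 5 and 9 in PC9 and 17 and 7 in H1975, against 7.93% and 13.3%, and 41.9% and 25.0%. With libraries summed the pathway promoters called for DTP, combo and AZD5153 alone were 2, 1 and 0 in PC9 and 9, 1 and 13 in H1975, and 4 and 0 for DTP and combo in HCC2935. No member gene's promoter region was called the same way in DTP cells of 3 lines. The FZD1, FZD8 and WNT9A promoter regions were called in 3 lines with mixed directions.

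The deposited peak calls of single libraries covered most members. A peak overlapped 123 to 141 of 149 member regions per library in PC9, 108 to 115 of 119 in H1975 and 98 to 117 of 122 in HCC2935. In HCC827 the number was 41 to 44 of 45 in DMSO, 20 to 37 in DTP and 20 to 38 in combo libraries. Total counts there were 2443177 to 3629743 in DMSO, 1892994 to 4242868 in DTP and 1724680 to 3603589 in combo libraries.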

How the data were processed

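ATAC-seq libraries of 4 lines were analysed from the deposited count tables, in which the authors give raw read counts per region, and from peak files with −log10 q-values per peak as deposited. Per the labels the build is hg38, and the submitters' processing notes name BWA 0.7.17, SAMtools 1.9, deepTools 3.4, MACS2 2.2.6, featureCounts 2.0.0 and ChIPseeker 1.29.1 with no role or order. No source used here states how the annotated regions were selected. Columns of the authors' own comparisons were not used, and 0 sample columns were left out.

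Each line was fitted alone over all its regions (502962 for PC9, 496892 for H1975, 350366 for HCC827, 361905 for HCC2935), of which filterByExpr kept 126506, 191202, 82309 and 154179. Fits used edgeR 4.0.16 in R 4.3.3 with TMM scaling, the quasi-likelihood F test and Benjamini-Hochberg adjustment over all regions tested, with calls at 0.05. CPM values carry the TMM scaling. Alternatives were DESeq2 1.42.0 (test and size factors), library size only, no filter, medians of 10 Mb bins removed, the replicate block, libraries summed within groups (with the spread taken from HCC2935), and each library left out. A fit without the libraries labelled AZD5153 was chosen after seeing the data. Tables were handled with the R package data.table (version 1.17.8), Python 3.11.15 and pandas 2.3.3, and figures drawn with matplotlib 3.10.9.

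Same-numbered HCC827 libraries deviated together (correlation 0.162 to 0.847). Its replicate 3 libraries stood apart from replicates 1 and 2 in every group. Libraries numbered 1 and 2 also correlated with each other, up to 0.565, so a pairing of these 2 numbers was not shown. Same-numbered libraries of PC9 (-0.035 to 0.019), H1975 (-0.053 to 0.03) and HCC2935 (-0.198 to 0.308) did not pair. On simulated DTP against DMSO counts over all regions tested, 39% of 2-fold and 80% of 4-fold changes were recovered in PC9, 48% and 77% in H1975, 1% and 16% in HCC827, and 34% and 75% in HCC2935. These counts were simulated and fitted without the replicate block, so the HCC827 values do not describe its fit with the block.

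Members, lists and rules were chosen with earlier results of these data known. Named regions had a call, groups that did not overlap and a mean of at least 1 CPM in the higher group: the 3 largest rises and falls for DTP against DMSO, 2 each for combo against DTP and AZD5153 against DMSO, and 1 each for the difference between settings, per line, with the replicate block in HCC827. Separation of the groups was asked of named regions, other than for the difference between settings, so it adds no support to their calls. Loci called in at least 3 lines, starts, and other regions beside them were singled out after their values were seen. EGFR and Wnt roles are background.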

Additional observations from a re-analysis of the deposited data

Results flagged for a closer look

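The change with AZD5153 differed between persister and untreated cells, by the test of the difference itself, at 17 members (11.4%) in PC9 and 66 (55.5%) in H1975. All regions tested had 13.8% and 42.5%, and the annotated regions as a whole 18.9% and 59.8%, so the member shares were below those of annotated regions. The named regions with the largest such differences on the log2 scale were WNT2B 1.7 kb before the start (2.65) and WNT5B 12.5 kb before it (-2.18) in PC9, and FZD6 8398 bases past the start (4.47) and WNT3A 8259 bases past it (-5.43) in H1975. The WNT3A value rests on 5, 0 and 1 counts in DMSO and 2, 3 and 7 in combo libraries. With regional medians removed the FZD6 value was 3.625. In H1975, 22 of 119 members lay in 10 Mb bins whose median difference passed 0.5 on the log2 scale in size. The H1975 libraries labelled AZD5153 also stood apart in epithelial marker level, and the part of this in these differences was not tested.

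At 11 loci every DTP library lay above the DMSO libraries in 1 line and below them in another, and both changes were called. Regions other than members were not matched, so this count has no background share beside it. The difference between lines was not tested at any of these loci, and the tables were scaled separately. With libraries summed both directions were still called at 6 of these loci. The log2 changes in DTP cells were as follows. DKK3 about 2 kb past a start changed by -1.82 in H1975, 1.59 in PC9 and 1.49 in HCC2935, and within 1 kb of a start by 1.46 in HCC2935 and -0.68 in H1975. The FZD1 start changed by -0.23 in PC9, 0.25 in H1975 and -0.44 in HCC2935. FZD9 about 4.4 kb before its start changed by -0.95 in HCC2935 and 1.34 in PC9. WNT11 29.7 kb before its start changed by -0.42 in PC9, -0.60 in HCC2935 and 1.23 in H1975. WNT6 5.6 kb before its start changed by 1.15 in PC9 and -0.77 in H1975. WNT7B 68.7 kb past its start changed by 0.44 in H1975 and -0.49 in PC9, 53.3 kb past it by 0.91 and -0.29, and 52.8 kb past it by 0.33 and -0.48. The WNT7B start region at 34 to 40 bases changed by 0.89 in PC9 and -0.96 in HCC2935. The WNT9A start changed by 0.39 in PC9, 0.74 in HCC2935 and -0.55 in H1975. With 3 libraries in each group, single libraries were not tested for standing apart.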

How the results depend on the processing

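Single-region changes kept their direction under every alternative run. Over the named regions and the loci called in 3 lines, 1023 region values kept their side of the threshold, 30 lost it and 3 passed it, the 3 being the HCC827 calls with the replicate block. Counts of called members moved most with the test and with libraries summed. DESeq2 gave 28 (DTP), 16 (combo) and 21 (AZD5153) in PC9, 22 for combo in H1975 and 8 for combo in HCC2935. With libraries summed, PC9 had 25, 9 and 16 and 6 for the difference between settings, H1975 had 10 for combo and HCC2935 8 for combo. With no filter on low counts HCC2935 had 9 for combo. The cause was not tested.

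The replicate block gave 3 calls for DTP in HCC827 in place of 0, and changed no other count of members by over 1.5 times (55, 38, 37 and 17 in PC9, 77, 38, 81 and 64 in H1975, 48 and 17 in HCC2935). Leaving out single libraries gave 37 to 56 calls for DTP, 27 to 41 for combo, 30 to 36 for AZD5153 and 13 to 17 for the difference in PC9. In H1975 the ranges were 72 to 77, 28 to 38, 75 to 84 and 59 to 65, in HCC2935 39 to 50 and 8 to 20, and in HCC827 0 to 0. Without the libraries labelled AZD5153, PC9 had 56 for DTP and 40 for combo, and H1975 80 and 38.

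The split of calls into higher and lower moved by over 10 percentage points by library size only: 30 and 23 against 25 and 29 for DTP in PC9, 17 and 22 against 20 and 18 for combo in PC9, 9 and 8 against 11 and 6 for its difference, 44 and 36 against 31 and 47 for DTP in H1975, 11 and 30 against 17 and 21 for combo, 43 and 40 against 32 and 49 for AZD5153 and 27 and 43 against 39 and 27 for its difference. With no filter it was 17 and 9 for combo and 16 and 10 for AZD5153 in PC9, and 30 and 10 against 27 and 21 for DTP in HCC2935. Depth limits regions near 1 CPM, where a library held few counts, and in HCC827 changes of 2-fold were rarely recoverable.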
